A study of Mus musculus with 9 samples.

Results

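Cerebellins are small secreted proteins of the C1q family, and they build synapses by bridging presynaptic neurexins to postsynaptic delta glutamate receptors. In the cerebellum, granule neurons release Cbln1 together with Cbln3 from their parallel fibres, and the complex joins neurexins on the fibre to delta receptors on the Purkinje cell. Cbln3 is known as a cerebellin of granule neurons that leaves the cell only in a complex with Cbln1, while Cbln2 and Cbln4 act at other synapses, Cbln4 also through the netrin receptors Dcc and Neo1. The 7 genes described here were chosen by name, with earlier results of these data known. Their counts and medians, set below beside all tested genes, are therefore descriptions and not independent support. They are the cerebellin genes Cbln1, Cbln2, Cbln3 and Cbln4, the neurexin genes Nrxn2 and Nrxn3, and Grid1, which encodes the receptor GluD1. All 7 genes are among the 17482 genes of the table and all passed the filter that left 15251 for testing.

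Tumour tissue of mice, which the labels name MB without expanding it, gave 9 RNA sequencing libraries at postnatal day 8 or 9. SG tumours (n = 3) have the genotype fSMO-M2;hGFAPcre, in which Cre under an hGFAP promoter switches on SMO-M2, an always active form of the Hedgehog signal transducer Smoothened. YSGr and YSGnr tumours (n = 3 each) share those alleles and add fYap1, a conditional allele of Yap1, the coactivator of the Hippo pathway; the r stands for rescued and the nr for non-rescued in the series text, which does not define rescue. No group lacks SMO-M2, so normal cerebellum is not part of any comparison, and nothing says whether each library is a separate animal, so p-values measure only the spread between libraries.

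Values are log2 CPM (read counts scaled to library size, on a log2 scale), where 1 unit is a doubling. Reads calculated back from these values came to between 17.3 M and 29.2 M (mega) in 8 libraries and 9.65 M in YSGnr replicate 1, where 2 genes, Yam1 and Lars2, took 63.4% of them, against 1.98% to 8.15% elsewhere. Yap1 stood at 5.03 to 5.11 log2 CPM in SG, at 2.79 to 4.44 in YSGr and at 1.99 to 2.79 in YSGnr. Xist was at 9.81 or more in the 3 YSGr libraries and YSGnr replicate 1 and at -0.25 or less in the other 5, so sex-linked transcripts cannot be told apart from group in YSGr against SG. Per library, 5 regional markers of the cerebellum summed to between 1398 and 2281 CPM and 3 of the forebrain to between 26.2 and 46.3. Fewer cells of a type and less RNA per cell cannot be told apart in such bulk samples.

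Cbln3 and Cbln4 had the widest estimated differences of the set between YSGr and SG, in opposite directions, and the DNA just before their starts is therefore shown first. The sequences are from RefSeq on GRCm38.p6, read 5′ to 3′ on the strand of the gene. Capitals mark matches, on either strand, to the E-box CANNTG (bound by basic helix-loop-helix factors such as Atoh1), the TEAD motif GGAATG (the DNA partners of YAP) or the NFI motif TTGGCA. The Cbln3 stretch is chr14:55884393-55884506 (minus strand), the 114 of the 250 bases before the RefSeq start that lie outside the longer GENCODE gene model. The Cbln4 stretch is chr2:172043467-172043716 (minus strand), 250 bases.
Cbln3 promoter: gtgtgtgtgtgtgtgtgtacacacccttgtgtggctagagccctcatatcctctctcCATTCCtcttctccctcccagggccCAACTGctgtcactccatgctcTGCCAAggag
Cbln4 promoter: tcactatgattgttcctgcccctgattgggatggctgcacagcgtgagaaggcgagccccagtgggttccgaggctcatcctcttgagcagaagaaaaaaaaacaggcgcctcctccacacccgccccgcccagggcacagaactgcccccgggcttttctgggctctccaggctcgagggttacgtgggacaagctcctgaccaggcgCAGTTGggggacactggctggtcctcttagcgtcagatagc
Cbln3 has 1 E-box, 1 TEAD motif and 1 NFI motif, and Cbln4 has 1 E-box and neither of the others. The GLI motif GACCACCCA was in neither 250-base window. Over 32851 promoter windows of 250 bases, 66.2% hold an E-box, 12.6% the TEAD motif, 12.3% the NFI motif and 0.225% the GLI motif. A match is a description of letters and not a bound site.

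In YSGr tumours 3 of the 7 genes were higher than in SG and none was lower. Cbln3 rose by 3.32 log2 units, Cbln1, the main cerebellin of parallel fibres, rose by 1.35 (2.55-fold), and Nrxn2 rose by 0.98 (1.97-fold). Among all 15251 tested genes 6.58% were called higher and 3.97% lower, by limma with a Benjamini-Hochberg adjusted p below 0.05. The 3 YSGr libraries lay wholly above the 3 SG libraries for 4 of the 7 genes, as for 19.5% of all tested genes, and wholly below for Grid1 alone, as for 17.3%. The median log2 fold change of the 7 was 0.98, beside -0.02 over all tested genes.

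In YSGnr tumours Cbln3 rose 3.24-fold over SG and Grid1 fell by 0.84 on the log2 scale, and the other 5 genes were not called. Over all tested genes 1.19% were called higher and 2.17% lower. The groups did not overlap for 2 of the 7 genes upward, Cbln3 and Cbln1, beside 16.9% of all tested genes, and for Grid1 downward, beside 21.3%. The median log2 fold change of the 7 was 0.03, beside -0.01 over all tested genes. Both this comparison and that of YSGr use the same 3 SG libraries, so their values are set side by side and are not independent.

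Between the 2 groups with the conditional Yap1 allele, Cbln3 was 3.09-fold, Cbln1 2.01-fold and Nrxn2 1.93-fold higher in YSGr, and no member was called lower. Here 5.09% of all tested genes were called higher and 0.879% lower. Without overlap, 4 of the 7 were higher in YSGr (15.0% of all tested genes) and Cbln4 was lower (7.46%), and the median of the 7 was 1.01 beside 0.01. The 3 calls rested on the spread taken from all 9 libraries: with the 6 libraries of YSGr and YSGnr alone limma called none of the 7 (adjusted p = 0.155 for Cbln1, 0.154 for Cbln3 and 0.161 for Nrxn2), while all 7 had an unadjusted p below 0.05.

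**Figure D1:**
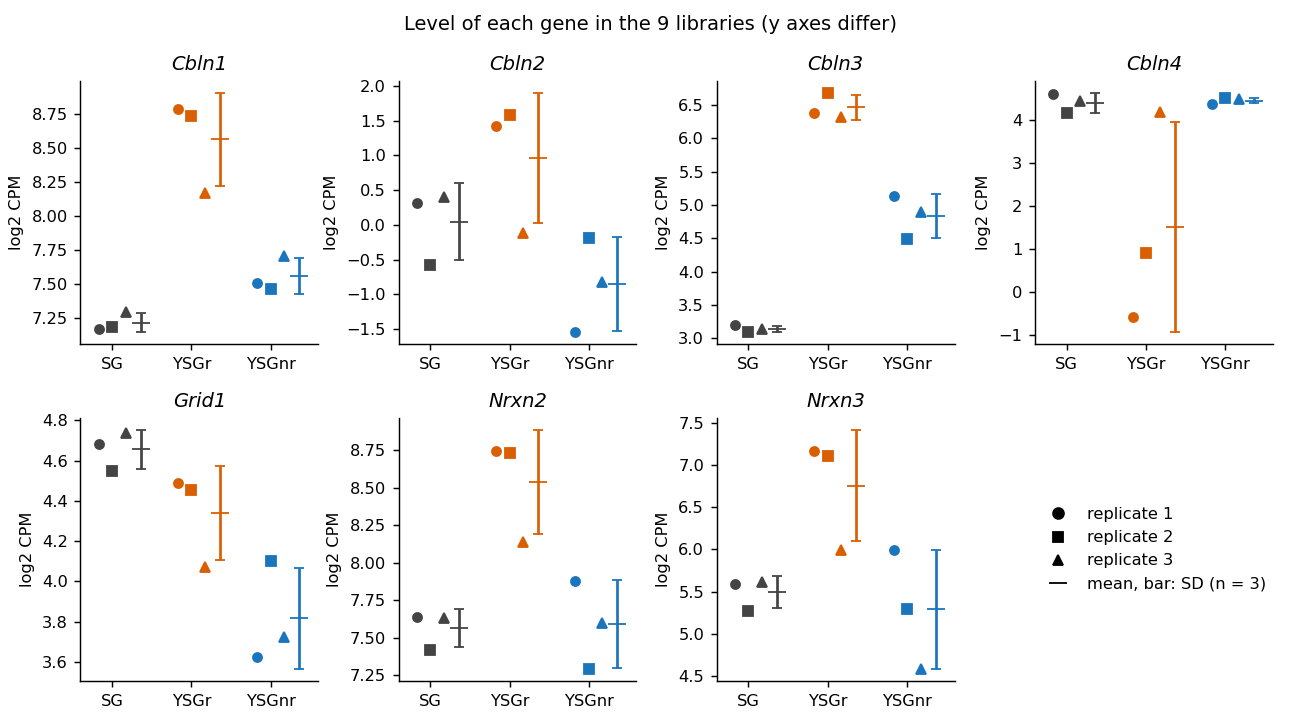
Level of the 7 genes in log2 CPM (y axis, a different range in each panel) in each library of SG, YSGr and YSGnr; symbols mark replicate numbers, and the horizontal line and bar give the mean and SD of 3 libraries. Cbln3 forms 3 separate levels (3.14, 6.46 and 4.84 on average), and Cbln4 is spread from -0.58 to 4.19 within YSGr alone.

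Cbln3 (ENSMUSG00000040380.14, chromosome 14, 55878913 to 55884392, GRCm38) had the widest difference of the set between group means in YSGr against SG. Its level was 3.20, 3.10 and 3.13 log2 CPM in SG replicates 1 to 3, 6.39, 6.68 and 6.33 in YSGr and 5.13, 4.49 and 4.89 in YSGnr. No library of one group reached the range of another, with every YSGnr library lying between SG and YSGr. The log2 fold change was 3.32 in YSGr against SG (SE 0.18, limma adjusted p = 9.19e-05) and 1.69 in YSGnr against SG (SE 0.18, adjusted p = 0.00438). YSGr stood 1.63 log2 units above YSGnr (SE 0.18, adjusted p = 0.0158), a call that was lost without YSGr replicate 1 or 2 or YSGnr replicate 2 or 3 (adjusted p = 0.0715, 0.0923, 0.0682 and 0.0699).

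Cbln1 (ENSMUSG00000031654.16, chromosome 8, 87468405 to 87472609) is the secreted ligand that parallel fibre synapses need, and Cbln3 reaches the cell surface only with it. Its level was 7.17, 7.18 and 7.30 log2 CPM in SG, 8.79, 8.74 and 8.17 in YSGr and 7.51, 7.46 and 7.71 in YSGnr. All YSGr libraries were above all others, and the YSGnr libraries stood just above SG without overlap. The difference was 1.35 log2 units in YSGr against SG (SE 0.18, limma adjusted p = 0.00387) and 1.01 in YSGr against YSGnr (SE 0.18, adjusted p = 0.0278). The second of these was lost without any 1 of 7 libraries, all but YSGr replicate 3 and YSGnr replicate 1 (adjusted p between 0.0657 and 0.146). In YSGnr against SG the difference was 0.34 (95% interval -0.06 to 0.74, adjusted p = 0.25) and was not called. It was called in the fit that omitted both YSGr replicate 3 and YSGnr replicate 1 (0.37, limma adjusted p = 0.00913) and with array weights (0.31, adjusted p = 0.0337), and the adjusted p reached 0.565 in other alternatives.

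Within a library the level of Cbln3 relative to Cbln1 does not depend on how libraries were scaled. A difference between libraries that goes with transcript length could still move it. The longest transcripts are 4.87 kb for Cbln3 and 2.8 kb for Cbln1. Cbln3 minus Cbln1 averaged -4.07 ± 0.10 log2 units over the SG libraries, -2.10 ± 0.28 over YSGr and -2.72 ± 0.31 over YSGnr (SD, n = 3 each). Cbln3 thus differed by 1.97 log2 units more than Cbln1 in YSGr against SG and by 1.35 more in YSGnr against SG, in both cases without overlap. An exact two-sided permutation test gave p = 0.1 for each, the smallest that 3 against 3 libraries allow, and 0.2 for the 0.62 units between YSGr and YSGnr, whose libraries overlapped.

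**Figure D2:**
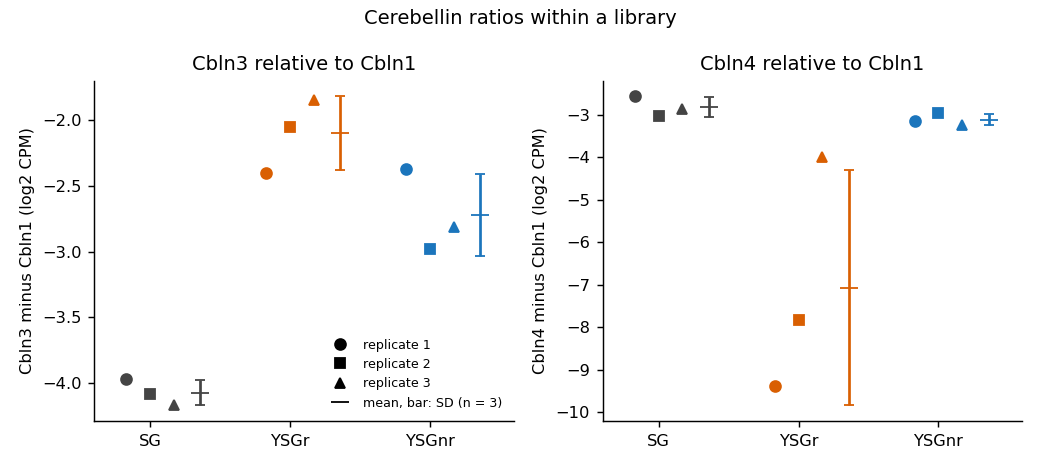
Difference of 2 cerebellin genes within each library (log2 CPM, y axis): Cbln3 minus Cbln1 on the left and Cbln4 minus Cbln1 on the right, with the mean and SD of 3 libraries per group. On the left the SG libraries sit near -4.07 and all others at -2.98 or above. On the right all 3 YSGr libraries sit below every SG and YSGnr library, with replicates 1 and 2 the lowest.

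Cbln4 (ENSMUSG00000067578.3, chromosome 2, 172036233 to 172043466) encodes a cerebellin that binds neurexins and Dcc. Its level was 4.60, 4.15 and 4.44 log2 CPM in SG and 4.38, 4.50 and 4.48 in YSGnr, 6 libraries within a narrow band. In YSGr it was -0.58, 0.91 and 4.19, so replicates 1 and 2 were far below every other library and replicate 3 lay inside the SG range. In estimated reads, YSGr held 17, 48.0 and 414 against 438, 487 and 697 in SG. The difference from SG was -2.89 log2 units (SE 0.94, 95% interval -5.00 to -0.79, limma adjusted p = 0.082) and that from YSGnr -2.95 (SE 0.94, adjusted p = 0.0781), neither of them called. Without YSGr replicate 3 the values were -4.24 (adjusted p = 0.000210) and -4.29 (adjusted p = 0.000221), both called; over all alternatives the adjusted p ranged from 2.56e-07 to 0.246 and from 8.61e-06 to 0.259.

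Most markers of granule neuron progenitors were also higher in YSGr replicate 3 than in replicates 1 and 2, 10 of 12, the other 2 being Mki67 and Ccnd2. The share of all tested genes with that order is not given, so the 10 have no background. By limma 0 of the 12 were called higher and 4 lower in YSGr against SG, beside 6.58% and 3.97% of all tested genes. None was called in YSGnr against SG or in YSGr against YSGnr (7 lower unadjusted in the last). All 12 were detected, and their summed level was 2013 and 1510 CPM in YSGr replicates 1 and 2 and 3701 in replicate 3, against 4026 to 4109 in SG and 3650 to 4010 in YSGnr. Atoh1, the E-box factor of these progenitors, had 3.89, 3.34 and 6.89 log2 CPM in YSGr, beside 5.89 to 6.76 in SG. The part of progenitor content in the Cbln4 values was not tested. The genes with the highest Pearson r to Cbln4 over the 9 libraries were the pseudogene Gm1821 (r = 0.99) and the antisense genes 4631405J19Rik (r = 0.98) and Gm13883 (r = 0.98). By rank the likeness was weaker, with a Spearman rho of 0.67, 0.68 and 0.67. Counts of these genes are uncertain because copies and overlapping genes can share reads. Gm1821 was at 0.02 and 1.27 log2 CPM in YSGr replicates 1 and 2 and between 7.41 and 8.53 in the other 7.

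Cbln2 was scarce and was measured with little precision, with fewer reads than any other of the 7 genes except in YSGr replicates 1 and 2, where Cbln4 had fewer. Its level was 0.32, -0.58 and 0.41 log2 CPM in SG, 1.42, 1.58 and -0.12 in YSGr and -1.54, -0.19 and -0.82 in YSGnr, which corresponds to between 10 and 78.0 estimated reads in 8 libraries and 1 in YSGnr replicate 1. YSGr replicates 1 and 2 were the highest of all, and replicate 3 lay within the SG range. The difference was 0.91 log2 units in YSGr against SG (95% interval -0.34 to 2.16, limma adjusted p = 0.344), -0.90 in YSGnr against SG (-2.15 to 0.35, adjusted p = 0.321) and 1.81 in YSGr against YSGnr (0.56 to 3.06, adjusted p = 0.0733), none called. The first was called in the fit that omitted both YSGr replicate 3 and YSGnr replicate 1 (1.45, limma adjusted p = 0.0101; from 0.00158 to 0.694 over all alternatives). The last was called without YSGr replicate 3 (2.35, adjusted p = 0.00638; adjusted p from 0.00144 to 0.264 over all alternatives).

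Nrxn2 (ENSMUSG00000033768.17, chromosome 19, 6418731 to 6544169) encodes a presynaptic receptor of the cerebellins. Its level was 7.64, 7.41 and 7.63 log2 CPM in SG, 8.75, 8.73 and 8.14 in YSGr and 7.88, 7.29 and 7.60 in YSGnr. The YSGr libraries lay above all others, and the SG and YSGnr libraries overlapped. Nrxn2 was higher in YSGr by 0.98 log2 units than in SG (SE 0.21, limma adjusted p = 0.0218) and by 0.95 than in YSGnr (SE 0.21, adjusted p = 0.0407), and differed by 0.03 between YSGnr and SG (95% interval -0.45 to 0.50; 0.38 with the length and GC trend removed, limma adjusted p = 0.0846, and -0.68 to 0.38 over all alternatives). Leaving out any 1 SG library, or YSGr replicate 1 or 2, ended the call against SG (adjusted p between 0.0743 and 0.0981). Against YSGnr it was lost without any 1 of the same 7 libraries as for Cbln1 (0.0774 to 0.187), with median scaling (0.0537) and with no mean-variance trend (0.0504), and with a trend of transcript length and GC content removed it was 0.38 (adjusted p = 0.0554). The exons of Nrxn2 share 682 bases, 4.94% of their length, with Slc22a12 on the other strand, and 207 with the antisense gene Gm14964; strand is not stated for the counting, so those reads cannot be assigned.

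Nrxn3 (ENSMUSG00000066392.11, chromosome 12, 88722876 to 90334935) encodes another presynaptic neurexin. Its level was 5.59, 5.28 and 5.62 log2 CPM in SG, 7.17, 7.11 and 5.99 in YSGr and 5.998, 5.29 and 4.58 in YSGnr. YSGr replicate 3 was just above SG and level with YSGnr replicate 1. The difference was 1.27 log2 units in YSGr against SG (SE 0.39, limma adjusted p = 0.0683) and 1.47 against YSGnr (SE 0.39, adjusted p = 0.0551), neither called, and -0.20 in YSGnr against SG (adjusted p = 0.759). The last was called lower in the fit that omitted both YSGr replicate 3 and YSGnr replicate 1 (-0.56, limma adjusted p = 0.0285; up to 0.889 over all alternatives). Without YSGr replicate 3 alone, YSGr differed by 1.65 from SG (adjusted p = 0.00760) and by 1.85 from YSGnr (adjusted p = 0.00341), and without YSGnr replicate 1 alone these were 1.27 (adjusted p = 0.0356) and 1.82 (adjusted p = 0.0187), all called; over all alternatives the adjusted p ran from 7.47e-07 to 0.453 and from 6.85e-06 to 0.314. Differences from SG also moved with transcript length: the difference of each library from the SG mean had a Spearman rho with length, over genes, of 0.15 and 0.13 in YSGr replicates 1 and 2, -0.41 in replicate 3, -0.07 in YSGnr replicate 1 and -0.52 and -0.50 in YSGnr replicates 2 and 3; its part in the Nrxn3 values was not tested beyond the fit that follows. With that trend removed Nrxn3 was called higher in YSGr than in SG (1.30, adjusted p = 0.0177).

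Grid1 (ENSMUSG00000041078.7, chromosome 14, 34820108 to 35583379) encodes GluD1, a postsynaptic receptor for cerebellins. Its level was 4.68, 4.55 and 4.74 log2 CPM in SG, 4.49, 4.46 and 4.07 in YSGr and 3.63, 4.10 and 3.72 in YSGnr. All SG libraries were above all others, and YSGr and YSGnr overlapped. Grid1 fell by 0.84 on the log2 scale in YSGnr against SG (SE 0.18, limma adjusted p = 0.0397), with a difference of -0.32 in YSGr against SG (95% interval -0.71 to 0.08, adjusted p = 0.299) and of 0.52 in YSGr against YSGnr (adjusted p = 0.0877). Leaving out any 1 SG library, YSGr replicate 1 or 2 or YSGnr replicate 3 ended this call (adjusted p between 0.0633 and 0.175), as did median scaling (adjusted p = 0.0537) and removal of the length and GC trend (-0.59, adjusted p = 0.0755). Without YSGr replicate 3 Grid1 was called higher in YSGr than in YSGnr (0.66, adjusted p = 0.0132; from 0.00286 to 0.477 over all alternatives).

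**Figure D3:**
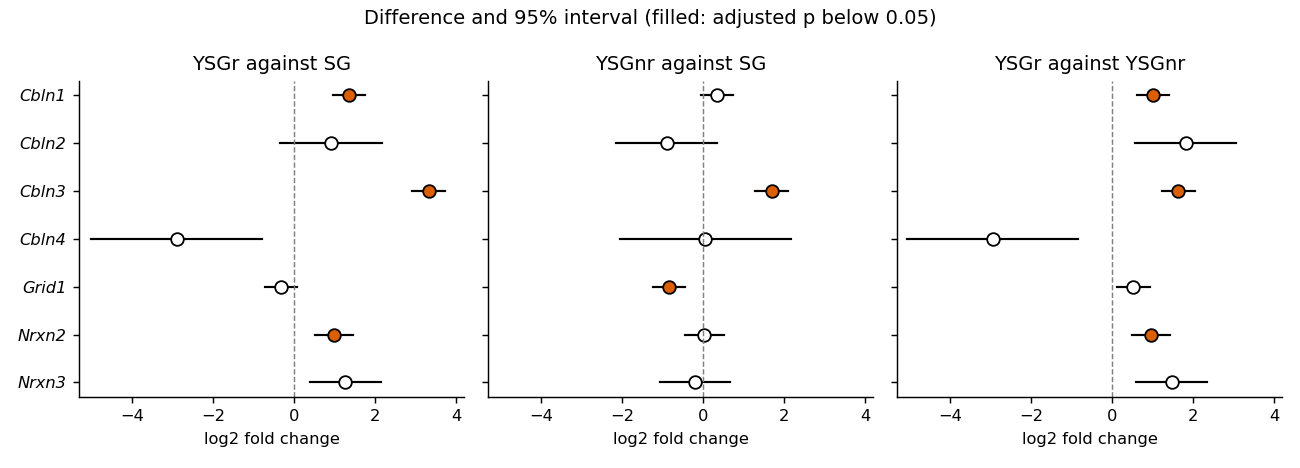
Log2 fold change of the 7 genes (x axis) in the 3 comparisons, with 95% intervals; filled points have a limma adjusted p below 0.05. Cbln3 is filled in all 3 panels, Grid1 only in YSGnr against SG, and the interval of Cbln4 spans from -5.00 to -0.79 in YSGr against SG.

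The composition of the cerebellin family was compared per kilobase of the longest annotated transcript, a scale on which genes can be ranked within a library. Cbln1 made up 81.7% to 89.6% of the cerebellin signal in every library. Cbln4 was next in SG (10.2% to 13.5%), ahead of Cbln3 (2.71% to 3.01%), and in all 3 YSGr libraries the order was reversed, with Cbln3 at 9.74% to 13.1% and Cbln4 at 0.113%, 0.352% and 4.96%. In YSGnr the ranges were 6.06% to 9.06% for Cbln3 and 8.62% to 10.3% for Cbln4. Cbln3 has a second, shorter coding transcript, and with the shortest coding transcripts its share in YSGr was 18.2%, 22.0% and 24.0% and in YSGnr 12.2% to 17.6%, which puts it above Cbln4 in YSGnr too. In SG these lengths gave 5.66% to 6.32% for Cbln3 and 6.23% to 8.35% for Cbln4, ranges that overlapped. Within each SG library Cbln4 was still ahead of Cbln3 (8.35% against 6.32%, 6.23% against 6.025% and 6.98% against 5.66%). The size of that lead thus depends much on the length used. Cbln1 then made up 73.1% to 81.3% in YSGr and 84.7% to 87.4% in SG.

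On the same scale Cbln1 averaged 53.1 ± 2.63 CPM per kilobase over the SG libraries, 138 ± 30.1 over YSGr and 67.5 ± 6.24 over YSGnr (SD, n = 3 each). Cbln3 averaged 1.80 ± 0.06, 18.2 ± 2.47 and 5.95 ± 1.31. In SG the order was Cbln1, Nrxn2, Cbln4, Nrxn3, Grid1, Cbln3 and Cbln2, where the libraries of Cbln4 (6.09 to 8.35) overlapped those of Nrxn3 (4.88 to 6.18), and the other neighbours did not overlap. In YSGr Cbln3 (16.5 to 21.1) came next after Cbln1 and Nrxn2, though its libraries overlapped those of Nrxn3 (8.03 to 18.1). Both orders hold for the longest transcripts only and can change with another length. The shortest coding transcript is 0.648 kb against 6.67 kb for Nrxn2, 2.70 against 7.92 for Nrxn3 and 1.44 against 4.87 for Cbln3.

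**Figure D4:**
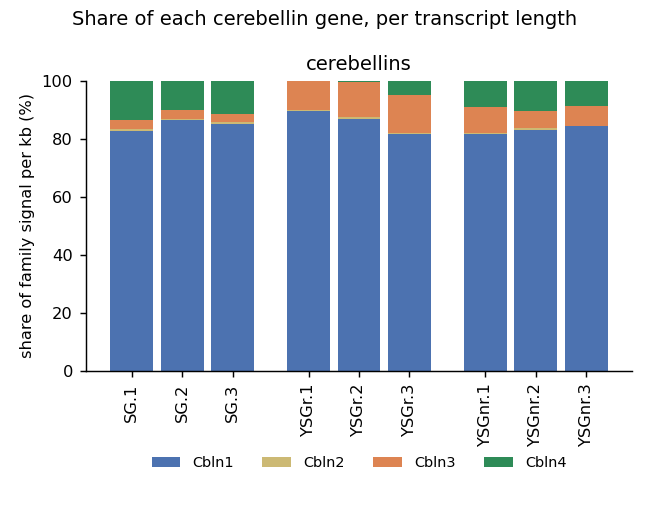
Share of each cerebellin gene in the signal of the family per kilobase of longest transcript (percent, y axis, stacked) in the 9 libraries. The Cbln3 segment is wider in all YSGr libraries (9.74% to 13.1%) than in SG (2.71% to 3.01%), and the Cbln4 segment is nearly gone in YSGr replicates 1 and 2.

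Because Cbln1 and Cbln3 are granule neuron genes, markers of the cells that make and receive parallel fibres are given beside them. All 11 markers of mature granule neurons were detected, and their summed level was 558 to 713 CPM in SG, 1206 to 2398 in YSGr and 649 to 1060 in YSGnr; 9, 4 and 8 of the 11 were called higher in YSGr against SG, YSGnr against SG and YSGr against YSGnr. The 11 Purkinje cell markers summed to 719 to 766 CPM in SG, 1163 to 1741 in YSGr and 593 to 868 in YSGnr. Of these, 5, 2 and 7 were called higher in the same comparisons, and 1, 0 and 0 lower. The 8 markers of cerebellar interneurons summed to 273.2 to 276.6, 373.6 to 583.5 and 189.9 to 263.4 CPM, with 2, 0 and 6 called higher and 0 lower. Over all tested genes 6.58%, 1.19% and 5.09% were called higher. The 7 oligodendrocyte markers summed to 591 to 1136, 2411 to 3784 and 822 to 1825 CPM.

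Relative to the granule neuron markers of the same library most of the differences in YSGr were gone or turned, in a setting added after seeing the data. Taking every gene against the median of the 11 markers lowers all differences by 1.62 log2 units in YSGr against SG, by 0.70 in YSGnr against SG and by 0.91 in YSGr against YSGnr, and 13130 of all tested genes are then called in the first, beside 1608. On that scale Cbln3 was still higher in YSGr than in SG (1.70, limma adjusted p = 0.00191), while Cbln1 (-0.27, adjusted p = 0.561), Nrxn2 (-0.64, adjusted p = 0.173) and Nrxn3 (-0.35, adjusted p = 0.453) were not called and had the opposite sign. Cbln4 (-4.51) and Grid1 (-1.93) were called lower (adjusted p = 0.000143 and 0.00108). Cbln3 in YSGnr against SG was 0.99 and no longer called (adjusted p = 0.134), and between YSGr and YSGnr Cbln1 (0.09), Cbln3 (0.71) and Nrxn2 (0.04) were not called. Over all alternatives the adjusted p of Cbln1 in YSGr against SG ran from 2.92e-08 to 0.561, that of Nrxn2 from 2.86e-07 to 0.173 and that of Cbln3 from 8.81e-10 to 0.00192. How much of the member differences follows the number of granule neurons was not tested.

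The genes most like each member in level over the 9 libraries are given as descriptions, since all share the same libraries. For Cbln3 they were Grin2c (r = 0.99), an NMDA receptor subunit of mature granule neurons, Gabra6 (r = 0.99), a GABA receptor subunit of the same cells, and Ccdc74a (r = 0.99), the first 2 of them also on the marker list. For Cbln1 they were Itpk1, Syp, the synaptic vesicle protein synaptophysin, and Cplx1, the release regulator complexin 1 (r = 0.99 each). For Nrxn2 they were Sez6l2, Slc6a17 and Cdk5r2 (r = 0.99 to 1.00), for Nrxn3 5031439G07Rik, Ppp1r16b and Parm1 (r = 0.99 each), for Grid1 Sh3rf1, Glud1 and Gng12 (r = 0.98 each) and for Cbln2 Sh3bp5, Fyn and Gabra3 (r = 0.97 to 0.98). Among the members, Cbln1 and Nrxn2 had r = 0.93, Cbln1 and Cbln3 0.92, and Cbln4 had r = -0.87 with Cbln1. Cbln4 was at -0.58 and 0.91 log2 CPM in YSGr replicates 1 and 2 and between 4.15 and 4.60 in all other libraries. Its r with Cbln1 therefore leans on those replicates.

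The partners of these genes were followed through 3 lists: 27 direct partners of neurexins and cerebellins, 26 other synaptic organizers and 13 postsynaptic genes of the parallel fibre synapse, 65 of the 66 tested. In YSGr against SG 9 of the 65 were called higher and 3 lower, beside 6.58% and 3.97% of all tested genes, with a median of 0.36 beside -0.02 over all tested genes. In YSGnr against SG none was higher and 1 lower (limma; 2 and 11 at an unadjusted p below 0.05), beside 1.19% and 2.17% of all tested genes, with a median of -0.31 beside -0.01. In YSGr against YSGnr 15 were higher and none lower (38 and 7 unadjusted), beside 5.09% and 0.879%, with a median of 0.67 beside 0.01. These counts moved with single libraries, to 42 without YSGr replicate 3 and 4 without any 1 of SG replicates 1 to 3 and YSGr replicates 1 and 2 for YSGr against SG. In YSGr against YSGnr they moved to 51 and 41 without YSGr replicate 3 and YSGnr replicate 1 and to 0 without any other library (at least 32 at an unadjusted p below 0.05). In YSGnr against SG they moved to 10 without YSGr replicate 3, 12 without YSGnr replicate 1 and 0 without any 1 SG library or YSGnr replicate 3 (limma, at least 7 unadjusted). The number of all tested genes called also moved between settings, so these shifts are not read as a result about the lists.

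Of the 26 tested direct partners 4 rose and 1 fell in YSGr against SG, where 6.58% of all tested genes were higher and 3.97% lower, so the 1 that fell is near the background. Clstn3, a calsyntenin that binds neurexins, rose by 1.21 log2 units (SE 0.18, limma adjusted p = 0.00594), Car10, a carbonic anhydrase-related ligand of neurexins, by 1.11 (adjusted p = 0.0259) and Lrrtm3, a postsynaptic neurexin ligand, by 1.07 (adjusted p = 0.0391). Dcc, the netrin receptor that binds Cbln4, fell by 1.40 (SE 0.33, adjusted p = 0.0283). In YSGr against YSGnr 6 were higher, beside 5.09% of all tested genes, among them Clstn2 (1.52, adjusted p = 0.0432), Apba1, an adaptor of neurexins (1.45, adjusted p = 0.0476), and Clstn3 (1.07, adjusted p = 0.0272). In YSGnr against SG no direct partner was called by limma (0 higher and 1 lower unadjusted); Dcc (-0.82, adjusted p = 0.163) and Nlgn3, a neuroligin (-0.50, adjusted p = 0.196), had the smallest adjusted p.

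Of the 13 postsynaptic genes of the parallel fibre synapse 4 rose in YSGr against SG and none fell, beside the same 6.58% and 3.97%. Among them were the calcium kinase genes Camk2b (1.48, limma adjusted p = 0.00722) and Camk2a (1.04, adjusted p = 0.0224) and the scaffold gene Homer3 (0.72, adjusted p = 0.00688). In YSGr against YSGnr 7 were higher, beside 5.09% of all tested genes, among them the scaffold genes Shank1 (2.28, adjusted p = 0.0465) and Shank2 (1.76, adjusted p = 0.0396) and Itpr1, an intracellular calcium channel gene (1.67, adjusted p = 0.0431). YSGnr replicates 1 to 3 had 6.61, 4.23 and 4.80 log2 CPM for Shank1 and 6.55, 5.23 and 5.35 for Shank2. Itpr1 had 8.52, 7.40 and 7.18. Replicate 1 thus lay within or just above the SG ranges (6.40 to 6.66, 6.31 to 6.42 and 8.36 to 8.49). Transcripts of these genes are long (9.83, 8.99 and 9.87 kb), and YSGnr replicates 2 and 3 had a negative length trend (rho -0.52 and -0.50). Its part in these values was not tested. None was called in YSGnr against SG by limma (1 higher and 3 lower unadjusted), where Gria3, an AMPA receptor subunit gene, was at -0.91 (adjusted p = 0.076) and Camk2a at -0.60 (adjusted p = 0.144).

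Of the 26 other synaptic organizers 1 rose and 2 fell in YSGr against SG, about as many as the 6.58% and 3.97% of all tested genes would give, so the count says nothing particular of this list. The adhesion gene Cadm3 rose by 1.27 (SE 0.20, limma adjusted p = 0.00741), while Cadm1, another member of its family, fell by 0.90 (adjusted p = 0.0209) and Flrt2, a latrophilin ligand, fell by 0.77 (adjusted p = 0.0406). In YSGnr against SG Ptprf, a receptor phosphatase, fell by 0.78 (SE 0.11, adjusted p = 0.0130). In YSGr against YSGnr the teneurin gene Tenm2 (1.80, adjusted p = 0.0307) and Cadm3 (0.91, adjusted p = 0.0403) were higher.

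YSGnr replicate 1 differed from the other 2 libraries of its group both in depth and in Xist. Without it, so that SG and YSGnr libraries were alike in sex-linked transcripts, Cbln3 was 1.55 log2 units above SG (limma adjusted p = 0.00528) and Grid1 was -0.74 (adjusted p = 0.0269), both still called. The same check cannot be made for YSGr against SG, where Xist and group coincide.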

How the data were processed

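The authors deposited 1 table of log2 CPM with 1 column per library; per the submitters' processing notes Trimmomatic, RSEM, Bowtie2, Picard and edgeR were used with build mm10, while their versions, the annotation and any strand setting were not given in the sources used here. Between 59.2% and 71.2% of low values were whole within 0.02 reads, so no count test was run, and reads quoted are estimates. Low genes have understated fold changes, because the authors added a count. limma 3.58.1 (R 4.3.3) was fitted to all 9 libraries with a mean-variance trend, for genes with log2 CPM above 0 in at least 3 libraries. The same steps were tested on simulated data. Genes were named by rule: the 7 members, up to 4 called genes per list and comparison (otherwise the 2 with the smallest adjusted p), and the 3 genes of highest Pearson r per member. Members and lists were chosen with earlier results of these data known. Lengths and positions came from GENCODE M21 (95.6% of symbols matched). Promoters came from RefSeq, where 3 of 6 members looked up matched (Cbln3, Cbln4 and Nrxn3, whose start sites lie inside its gene model and are not shown). Some genes that the rule names are not reported here. Replicate numbers did not pair the libraries. Alternatives covered filters, pseudocount, scaling, samples, trend, weights, block, length and GC, and single libraries; expression relative to granule neuron markers was added after seeing the data.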

Additional observations from a re-analysis of the deposited data

How the results depend on the processing

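Of the called differences, Cbln3 and Cbln1 in YSGr against SG and Cbln3 in YSGnr against SG kept their call in every alternative that did not use granule neuron markers; Cbln3 in YSGr against SG kept it there too. The ratio of Cbln3 to Cbln1 kept its direction in all 27 checks made of it over the 3 comparisons. Scaling of whole libraries cannot change that ratio. Array weights stopped before converging, so those values are uncertain. The number of all tested genes called also moved with the setting, in 41 checks, and stayed alike in 28. The counts below are given without a share of all tested genes. They describe the settings and are not read as a result about the members or the lists. Counts of the 7 genes called, 3 in YSGr against SG, 2 in YSGnr against SG and 3 in YSGr against YSGnr, moved as follows. They were 7 and 7 with array weights in the first and last comparison, and 6, 4 and 7 without both YSGr replicate 3 and YSGnr replicate 1. In YSGnr against SG the count was 1 with median scaling, the replicate block, the length and GC trend removed, and both together. In YSGr against YSGnr it was 0 with the 6 libraries alone (limma, 7 at an unadjusted p below 0.05). Relative to the granule neuron markers it was 1 in each of the last 2. Leaving out 1 library gave 2 to 5, 1 to 2 and 0 to 7 (at least 6 unadjusted in the last). Counts of the 65 pathway genes, 12, 1 and 15, were 57, 39 and 58 with array weights, 54, 44 and 56 without both libraries, and 39, 10 and 9 relative to the markers. They were 19 with the length and GC trend removed, with or without the block, in the first. In the second they were 6 with the 6 libraries alone, 2 with the block, 2 with the trend removed and 0 with both (limma, 12 unadjusted). In the last they were 4 with median scaling, 9 with quantile normalization, 5 with no trend and 0 with the 6 libraries alone (38 unadjusted). Leaving out 1 library gave 4 to 42, 0 to 12 and 0 to 51 (limma, at least 18, 7 and 32 unadjusted). The replicate block, which the numbers do not warrant (4 of 9 same-numbered pairs had r over 0.1, and 5 of 9 libraries correlated best with their own number), gave 4, 1 and 4 of the 7 genes. It ended the call of Grid1 in YSGnr against SG (adjusted p = 0.0597) and called Nrxn3 higher in YSGr than in SG and YSGnr (adjusted p = 0.0394 and 0.0428).

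Values that turned sign were small in YSGnr against SG: Cbln4 was -0.036 with the length and GC trend removed, with or without the block, -0.070 without SG replicate 2 and -0.65 relative to the markers, and -0.070 to 0.16 with 1 library left out. Nrxn2 was -0.16 with array weights, -0.12 without both libraries and without YSGnr replicate 1 alone, -0.05 without SG replicate 2 and -0.68 relative to the markers, and -0.12 to 0.18 with 1 library left out. Nrxn3 was 0.21 with the trend removed, with or without the block, and 0.15 without YSGnr replicate 3, and -0.56 to 0.15 with 1 library left out. Relative to the markers the signs also turned for Cbln1 (-0.27), Cbln2 (-0.71), Nrxn2 (-0.64) and Nrxn3 (-0.35) in YSGr against SG, Cbln1 (-0.36) in YSGnr against SG and Grid1 (-0.39) in YSGr against YSGnr. Against the mean rather than the median of the markers, a description with no test, Cbln3 differed by 1.41 and Cbln1 by -0.57 in YSGr against SG. The causes were not tested. With array weights Grid1 was also called lower in YSGr against SG (-0.21, limma adjusted p = 0.0406). Low read numbers limit Cbln2, Cbln4 in YSGr replicates 1 and 2, and YSGnr replicate 1.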
